A study of Mus musculus with 56 samples.

Results

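Imatinib and nilotinib, kinase inhibitors of related structure, were compared with each other in the livers of 16 mice, 8 given imatinib at 150 mg/kg and 8 given nilotinib at 30 mg/kg. The mice were taken by the drug and dose in their labels, 16 of the 56 mice in 7 groups of 8 that were sequenced. All were female APOE*3Leiden.CETP mice, 9 to 14 weeks of age, which carry the human APOE*3Leiden variant together with APOC1, and the human CETP gene under its own flanking regions. All ate a Western-type diet with 15% cacao butter and 0.15% cholesterol in a run-in period and then during 16 weeks of treatment. The livers were taken at the end of the treatment. Imatinib was given by gavage 2 times per day, and nilotinib 1 time per day with a vehicle gavage (5% carboxymethyl cellulose) as the other dose of the day. The 8 control mice, against which each drug was also tested, received the vehicle alone, and 8 further mice received nilotinib at 10 mg/kg. A further 16 mice given ponatinib, another BCR-ABL inhibitor, at 3 or 10 mg/kg enter only the shared fit, where they add to the estimate of the spread. The dose and the schedule differed between the drugs, so the drug and its dosing cannot be told apart in any difference below.

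Imatinib was designed against the BCR-ABL kinase of chronic myeloid leukemia, and nilotinib was derived from it. Both hold a pyridyl-pyrimidine joined through an amine to a methylphenyl ring and an amide. In nilotinib the amide runs in the reverse direction, and a phenyl ring with a trifluoromethyl and a methylimidazole group stands in place of the benzyl N-methylpiperazine of imatinib. Both bind ABL1, ABL2, KIT, the PDGF receptors, the collagen receptors DDR1 and DDR2 the macrophage receptor CSF1R and the oxidoreductase NQO2. In the liver, hepatocytes answer foreign compounds through receptors such as AHR, CAR and PXR, which switch on cytochrome P450 genes. Hepatocytes also make cholesterol under the control of SREBP2 and burn fatty acids under the control of PPAR-alpha, while Kupffer cells and recruited macrophages take up lipid and debris, and stellate cells make collagen.

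The liver mRNA was counted per gene, and levels are given in CPM, a gene's count scaled to the size of the mouse's library after TMM normalization. Reads counted on genes numbered 7101060 to 10864365 in the imatinib mice and 7027550 to 8260305 in the nilotinib mice (exact permutation test of the means, two-sided, p = 0.330). The share of uniquely aligned reads outside annotated genes was 10.04% ± 1.82 (SD, n = 8 mice) with imatinib and 10.5% ± 1.39 (SD, n = 8 mice) with nilotinib (exact permutation test, two-sided, p = 0.597). It was above 12% in 3 of the 16 mice. Albumin mRNA (Alb), which marks hepatocytes, ran from 71285 to 112110 CPM with imatinib and from 51262 to 92855 CPM with nilotinib. Of 16 markers of neighboring tissues, 13 were under the filter on low counts, Adipoq of fat and Ckm of muscle among them.

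Of 14090 genes tested, 466 (3.31%) differed between the drugs at an adjusted p below 0.05 (edgeR's quasi-likelihood test, Benjamini-Hochberg adjustment), the rule for every gene called higher or lower below. Expression of 155 genes (1.1%) was higher with imatinib and that of 311 genes (2.21%) was lower. These shares are the background for every count of called genes in a list below. At an unadjusted p below 0.01, the cut-off used in the study, 1027 genes (7.29%) passed, 415 higher (2.95%) and 612 lower (4.34%), where 141 would pass by chance. The 8 imatinib mice lay wholly above or below the 8 nilotinib mice for 111 genes (0.788%), 30 above (0.213%) and 81 below (0.575%). The split of the calls depended on the tool, since limma voom with sample quality weights called 1056 genes, 45.9% of them higher with imatinib against 33.3% here. Left out singly, nilotinib mouse 7 lowered the count to 274 and nilotinib mouse 8 to 310.

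**Figure D1:**
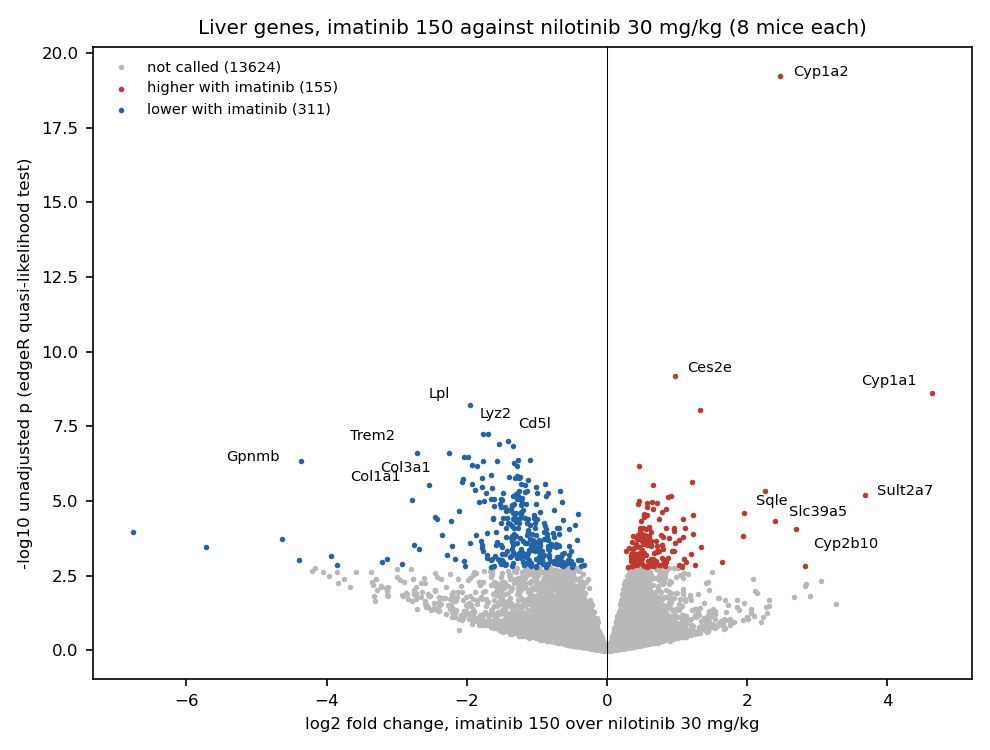
The horizontal axis gives the log2 fold change of imatinib 150 over nilotinib 30 mg/kg and the vertical axis the -log10 unadjusted p of edgeR's quasi-likelihood test, 1 point per gene over 14090 genes. The 155 genes called higher with imatinib are red and the 311 called lower are blue; Cyp1a2 stands highest, and Cyp1a1 farthest to the right.

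The call with the smallest p was in the CYP1A genes, the classical targets of the aryl hydrocarbon receptor AHR. Cyp1a2, the main CYP1A enzyme of liver, ran from 2686 to 3957 CPM with imatinib (median 3372) and from 481 to 685 CPM with nilotinib (median 607). The groups were far apart, and the nilotinib mice lay near the control mean of 521 CPM. The log2 fold change of imatinib over nilotinib was 2.47 ± 0.17 (SE; adjusted p = 8.05e-16), 5.56-fold. Cyp1a1, its inducible neighbor that is hardly expressed in resting liver, ran from 10.6 to 48.0 CPM with imatinib (median 29.9) and from 0 to 5.09 CPM with nilotinib (median 0.705). Again no imatinib mouse overlapped a nilotinib mouse, and the log2 fold change was 4.64 ± 0.65 (SE; adjusted p = 1.16e-05), the largest positive value among the genes tested. The other 6 AHR targets and partners tested were not called. Among them Ahr itself showed a log2 fold change of 0.33 (adjusted p = 0.277), and Tiparp and Cyp1b1 had 0.098 and -0.79. The median over the 8 genes was 0.25, against 0.001 over all genes tested, and 2 genes were called whichever mouse was left out.

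Cyp1a1 and Cyp1a2 lie head to head on chromosome 9, with their transcription starts 13.96 kb apart on opposite strands. The 250 bases before each start are printed because Cyp1a1 had the largest positive fold change and Cyp1a2 the smallest p; they are from RefSeq (GRCm38.p6), read 5′ to 3′ along the gene's own strand, chr9:57697363-57697612 (+) for Cyp1a1 and chr9:57683656-57683905 (-) for Cyp1a2. Capitals mark GCGTG, the core letters of the AHR response element, searched on both strands.
Cyp1a1: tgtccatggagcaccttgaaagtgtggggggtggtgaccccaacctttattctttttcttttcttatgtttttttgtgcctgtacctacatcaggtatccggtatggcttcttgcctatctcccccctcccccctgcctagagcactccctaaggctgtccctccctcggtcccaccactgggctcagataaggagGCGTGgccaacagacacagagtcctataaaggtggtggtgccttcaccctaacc
Cyp1a2: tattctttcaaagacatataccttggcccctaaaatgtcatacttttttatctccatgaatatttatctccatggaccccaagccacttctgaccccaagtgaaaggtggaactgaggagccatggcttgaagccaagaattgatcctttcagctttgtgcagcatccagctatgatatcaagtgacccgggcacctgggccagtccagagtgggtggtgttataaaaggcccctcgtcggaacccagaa
The core stood in the Cyp1a1 stretch 54 bases before the start and was not in the Cyp1a2 stretch. Among all 32851 promoter entries, 28.2% held it within the same 250 bases, and 42.9% of the 13160 entries of genes tested, so a match is common, and the letters alone are a description.

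Genes regulated by CAR and PXR, the receptors for phenobarbital-like and steroid-like compounds, were also higher with imatinib in part. Of 24 tested, 6 were called higher and 0 lower, with a median log2 fold change of 0.72. By unadjusted p below 0.01, 9 were higher and 0 lower. Cyp2b10, the standard readout of CAR, ran from 8.51 to 67.4 CPM with imatinib (median 25.8) and from 0.656 to 11.1 CPM with nilotinib (median 4.57). Only the lowest imatinib mouse fell within the nilotinib range (log2 fold change 2.70 ± 0.63 SE, adjusted p = 0.00758). Nr1i3, which encodes CAR itself, had a median of 1151 CPM with imatinib and 466 CPM with nilotinib, and 5 imatinib mice lay above every nilotinib mouse (adjusted p = 0.00847). Without the 3 mice above 12% of reads outside genes, Nr1i3 was no longer called, at a log2 fold change of 0.86. Cyp2c50 and Cyp2c29, drug and arachidonate hydroxylases, were 1.57- and 1.72-fold higher (adjusted p = 0.00201 and 0.00318), and all imatinib mice exceeded all nilotinib mice for Cyp2c50. Cyp2a4 and Cyp2c37 were called as well, at log2 fold changes of 1.34 and 0.80. Cyp2c37 was not called without imatinib mouse 3, 5, 7 or 8 or nilotinib mouse 2, 4, 7 or 8, and Cyp2a4 not without the 3 mice above 12% of reads outside genes. Because reads aligning to more than 1 place were not counted, values of the closely similar Cyp2c and Cyp2a genes are less certain. The count ran from 5 to 10 as single mice were left out, 10 without nilotinib mouse 3.

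Cyp3a11, the main PXR-driven P450 of mouse liver, did not separate the drugs. It ran from 1991 to 2691 CPM with imatinib and from 1418 to 2972 CPM with nilotinib, with medians of 2203 and 2199 CPM. The log2 fold change was 0.11, with a 95% confidence interval from -0.16 to 0.38 (adjusted p = 0.783). Against the 8 control mice (mean 1544 CPM), both drugs had passed the test, with log2 fold changes of 0.56 for imatinib and 0.45 for nilotinib (adjusted p = 0.00444 and 0.0337). These comparisons share the control mice.

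Some conjugating and hydrolyzing enzymes of drug metabolism were higher with imatinib as well. Ces2e, a carboxylesterase, ran from 273 to 519 CPM with imatinib (median 333) and from 142 to 248 CPM with nilotinib (median 174). The ranges were apart (1.95-fold, adjusted p = 4.69e-06). Sult2a7, a sulfotransferase of steroids and bile acids, varied widely among the imatinib mice, from 2.13 to 77.0 CPM, against 0.117 to 4.33 CPM with nilotinib, and 7 imatinib mice lay above the nilotinib range (log2 fold change 3.68 ± 0.73 SE, adjusted p = 0.00153). Ugt2b5, a glucuronosyltransferase, was 1.48-fold higher and Aldh2, the mitochondrial aldehyde dehydrogenase, 1.37-fold higher (adjusted p = 0.00372 and 0.000405). Of the 22 glucuronosyltransferases and sulfotransferases listed and tested, Ugt2b5 and Ugt2b34 were the called members (9.09%), both higher. Sult2a7 is not on that list. Of 20 hepatic drug transporters, only Abcc3, a basolateral exporter of conjugates, was called (5.0%, near the 3.31% of all genes tested). Abcc3 ran from 364 to 544 CPM with imatinib and from 174 to 348 CPM with nilotinib, without overlap (1.52-fold, adjusted p = 0.0113). The median log2 fold change was 0.34 over the conjugating enzymes and 0.24 over the transporters.

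**Figure D2:**
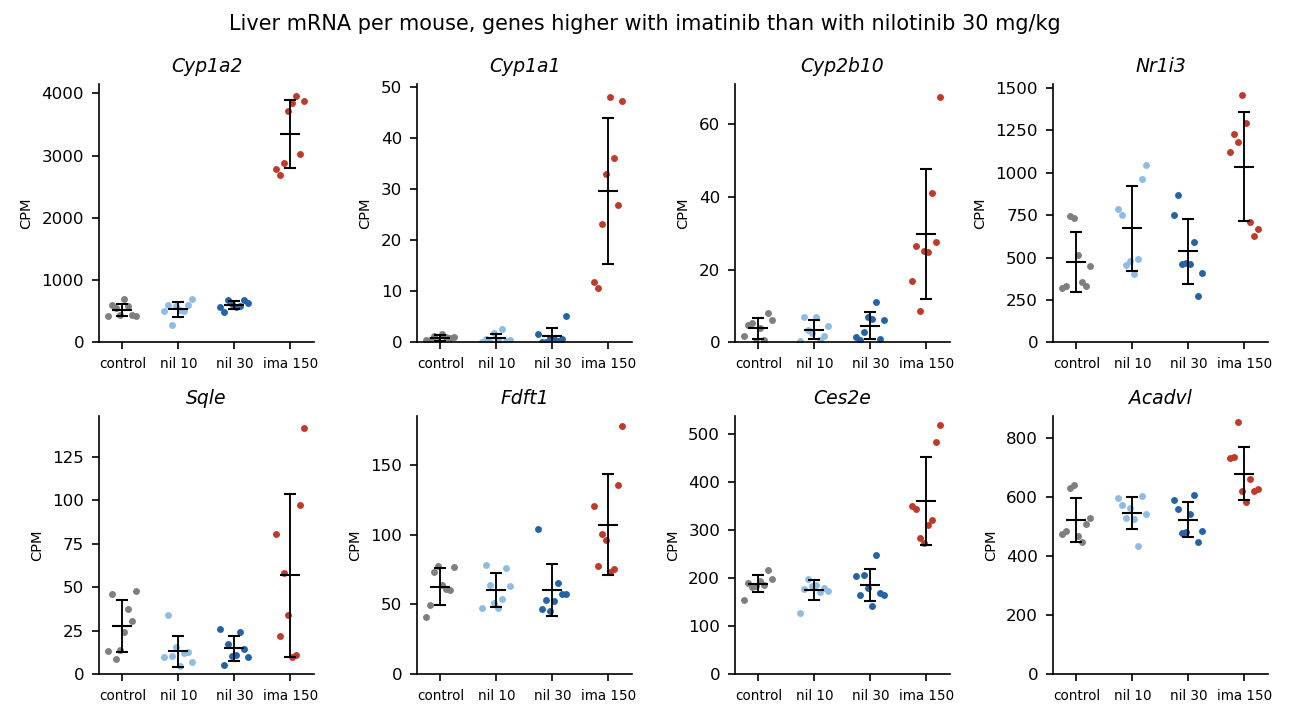
Each panel plots the CPM of 1 gene in single mice (points, 8 per group) with the mean and SD (bars) for control, nilotinib 10 (nil 10), nilotinib 30 (nil 30) and imatinib 150 mg/kg (ima 150). For Cyp1a2 the imatinib mice sit between 2686 and 3957 CPM, above every mouse of the other groups shown, and for Ces2e between 273 and 519 CPM, again above every other mouse shown.

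Several genes of cholesterol synthesis were higher with imatinib than with nilotinib. Of 28 genes of the SREBP2 program tested, 11 were called higher and 0 lower, 27 of 28 had a positive fold change, and the median was 0.67. Sqle, the epoxidase at the start of sterol ring formation, ran from 9.97 to 142 CPM with imatinib (median 46.1) and from 5.12 to 26.0 CPM with nilotinib (median 12.4). Imatinib mice were widely spread, 5 of them above the nilotinib range and 3 within it (log2 fold change 1.95 ± 0.42 SE, adjusted p = 0.00343). Cyp51, Fdft1 and Hsd17b7, which act between squalene formation and the later sterol steps, were 2.17-, 1.78- and 1.88-fold higher (adjusted p = 0.00724, 0.00283 and 0.0016). Among the other called members, Stard4, Acat2, Nsdhl, Dhcr7 and Tm7sf2 had log2 fold changes from 0.70 to 0.86. Of these, Acat2, Nsdhl, Dhcr7 and Tm7sf2 were not called without imatinib mouse 1, 7 or 8 or nilotinib mouse 2 or 8. Each also lost its call without further nilotinib mice among 4, 5 and 7. None of these 4 genes was called by limma voom or in a fit of only the 16 mice of both drugs. Stard4 was not called without the 3 mice above 12% of reads outside genes (edgeR adjusted p = 0.0529).

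Against the control mice, 4 of the 28 genes were called higher and 0 lower with imatinib, and 0 higher and 2 lower with nilotinib. The median log2 fold changes from control were 0.47 and -0.26. The 28 genes summed to a median of 3502 CPM with imatinib, 2763 CPM with nilotinib and 3652 CPM in the control mice. For Fdft1 and Hsd17b7 the control level is given beside the contrast. Fdft1, with a control mean of 62.9 CPM, had log2 fold changes from control of 0.77 with imatinib (adjusted p = 0.00316) and -0.06 with nilotinib (adjusted p = 0.918). For Hsd17b7, with a control mean of 51.0 CPM, they were 0.46 and -0.45, neither past the test (adjusted p = 0.0936 and 0.145). Cyp7a1, the rate-limiting enzyme of bile acid synthesis, had 104 ± 57.5 CPM with imatinib and 51.1 ± 34.3 CPM with nilotinib (SD, n = 8 mice each), and did not pass the test between the drugs (edgeR adjusted p = 0.237). The number of called SREBP2 genes was 5 with limma voom, where Sqle and Cyp51 were not called, and ran from 7 to 14 as single mice were left out, with 7 without imatinib mouse 1, 7 or 8 or nilotinib mouse 2 or 8. RefSeq promoter entries were matched for 6 of the 11 called genes, and TCACNCCAC, a consensus of the sterol response element, stood in none of their 8 stretches of 250 bases on either strand, against 1.05% of all entries; this says only that these letters are not in those windows.

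Some fatty acid oxidation genes under PPAR-alpha were higher with imatinib. Of 33 tested, 8 were called higher and 0 lower, 30 had a positive fold change, and the median was 0.36. Acadvl, the first dehydrogenase of long-chain beta-oxidation, had a median of 642 CPM with imatinib and 513 CPM with nilotinib (1.3-fold, adjusted p = 0.0113), with 7 imatinib mice above the nilotinib range. Vnn1, a pantetheinase that follows PPAR-alpha activity, was 1.73-fold higher (adjusted p = 0.017), and Acot4, a peroxisomal thioesterase, 1.95-fold higher (adjusted p = 0.0157). Acadvl was called whichever single mouse was left out. Without nilotinib mouse 7 the count was 1, and Vnn1 and Acot4 were no longer called, at log2 fold changes of 0.72 and 0.88. The count was 3 without the 3 mice above 12% of reads outside genes, 4 without imatinib mouse 1, 2 or 3 or nilotinib mouse 3, 4 or 8, 5 without nilotinib mouse 5 and 13 without nilotinib mouse 1. Oxidative phosphorylation subunits (77 tested) and cytosolic ribosomal proteins (74 tested) had 0 members called by edgeR, DESeq2 or limma voom, with or without quality weights. At an unadjusted p below 0.05 (15.5% of all genes tested), 8 and 0 members passed, and the medians were 0.17 and 0.048. Fold changes were positive for 72 of the 77 and 45 of the 74, against 7067 of all 14090 genes tested.

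Many macrophage genes were lower with imatinib. Of 29 markers of recruited monocytes and lipid-associated macrophages, 14 were called lower and 0 higher with imatinib, all 29 had a negative fold change, and the median was -1.38. Gpnmb, a glycoprotein of lipid-laden macrophages, ran from 0.296 to 9.64 CPM with imatinib (median 3.49) and from 6.09 to 205 CPM with nilotinib (median 62.5). The nilotinib mice were spread widely, and 6 imatinib mice lay below all of them. The log2 fold change was -4.36 ± 0.76 (SE, adjusted p = 0.000347), a call that limma voom did not make with or without quality weights. Trem2, the lipid-sensing receptor of the same cells, ran from 0.279 to 11.7 CPM against 5.68 to 42.5 CPM (log2 fold change -2.71 ± 0.46 SE, adjusted p = 0.000291), with 7 imatinib mice below every nilotinib mouse. Lyz2, the lysozyme of myeloid cells, and Ctss, the cathepsin that processes antigen, had medians of 92.2 and 50.6 CPM with imatinib and 304 and 145 CPM with nilotinib. Neither gene had overlapping groups (log2 fold changes -1.70 and -1.77, adjusted p = 0.000118 for both). Mmp12, the macrophage elastase, overlapped more, at 1.68 to 21.8 CPM against 4.2 to 96.3 CPM (log2 fold change -2.75 ± 0.71 SE, adjusted p = 0.017). It was not called by limma voom with or without quality weights.

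Some Kupffer cell markers were lower too. Of 20 tested, 9 were called lower and 0 higher, with a median log2 fold change of -0.91. Cd5l, a secreted protein of resident macrophages, ran from 176 to 338 CPM with imatinib (median 249) and from 376 to 883 CPM with nilotinib (median 699), without overlap (log2 fold change -1.41 ± 0.23 SE, adjusted p = 0.00017). Cd68, a lysosomal protein of macrophages, and C1qc, a chain of complement C1q, were 0.456 and 0.484 times the nilotinib level (adjusted p = 0.00544 and 0.00375). Clec4f and Timd4, which mark resident Kupffer cells, were not called. Clec4f had 205 ± 45.4 CPM against 284 ± 45.8 CPM, and Timd4 had 13.1 ± 4.38 CPM against 14.4 ± 4.7 CPM (SD, n = 8 mice each; edgeR adjusted p = 0.193 and 0.928). The summed level of the 20 markers ran from 979 to 1725 CPM with imatinib and from 1625 to 2803 CPM with nilotinib, and that of the 29 recruited markers from 383 to 615 CPM and from 679 to 2299 CPM. The latter ranges did not overlap. In whole liver, fewer cells of a type and less RNA per cell cannot be told apart.

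Some genes of antigen presentation and leukocyte adhesion were lower with imatinib as well. Of 10 MHC class II genes, 5 were called lower, with a median log2 fold change of -1.69. H2-Aa, a class II chain, ran from 24.7 to 53.9 CPM with imatinib (median 40.1) and from 68.3 to 345 CPM with nilotinib (median 134), and Cd74, its invariant chain, from 66.4 to 126 CPM and from 151 to 650 CPM. All imatinib mice lay below all nilotinib mice for both genes (adjusted p = 0.000331 and 0.000347). Of 18 leukocyte integrins and adhesion ligands, 7 were called lower, among them Itgb2, the common beta chain of the leukocyte integrins (0.364 times the nilotinib level, adjusted p = 0.00245), and Icam1, its ligand on endothelium (0.495 times, adjusted p = 0.0105). Leaving out imatinib mouse 4, 5 or 8 or nilotinib mouse 7 or 8 brought the adhesion count to 4. Of 24 NF-kappa-B and cytokine genes, 5 were called lower, and 2 without nilotinib mouse 7. Cxcl9, a chemokine for T cells, ran from 5.39 to 23.1 CPM with imatinib and from 24.0 to 47.6 CPM with nilotinib (0.429 times, adjusted p = 0.00189). Of 17 T and NK cell markers and 4 neutrophil markers, 0 were called by edgeR, DESeq2 or limma voom, with or without quality weights, and 3 and 0 had an unadjusted p below 0.05. The medians were -1.01 and -0.84, with all 17 T and NK cell markers and 3 of the 4 neutrophil markers negative. Most defining neutrophil markers were under the filter on low counts. The T and NK markers summed to 13.2 to 22.6 CPM with imatinib and 17.8 to 43.9 CPM with nilotinib.

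**Figure D3:**
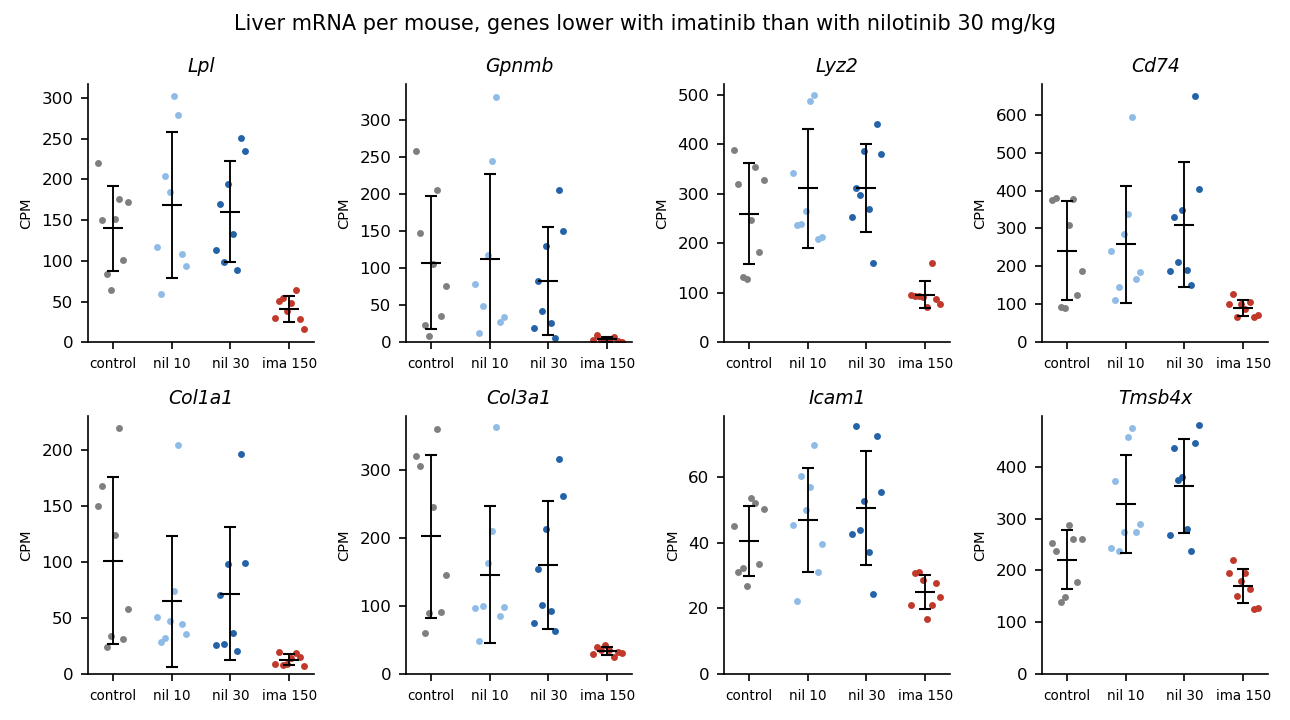
Each panel plots the CPM of 1 gene in single mice (points, 8 per group) with the mean and SD (bars) for control, nilotinib 10 (nil 10), nilotinib 30 (nil 30) and imatinib 150 mg/kg (ima 150). For Col3a1 the imatinib mice sit between 24.9 and 42.6 CPM, below every nilotinib 30 mg/kg mouse. For Cd74 they sit between 66.4 and 126 CPM, again below every nilotinib 30 mg/kg mouse. Some mice of the other groups fall in that Cd74 range, the lowest control mouse at 91.2 CPM and the lowest nilotinib 10 mg/kg mouse at 111 CPM.

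Some lipid-handling genes were lower with imatinib. Lpl, the lipase that frees fatty acids from lipoproteins, ran from 16.9 to 64.7 CPM with imatinib (median 43.4) and from 88.9 to 250 CPM with nilotinib (median 151). The groups did not overlap, and the log2 fold change of -1.95 ± 0.28 (SE; adjusted p = 2.08e-05) was the call with the smallest p among the lower genes. Abcg1, a cholesterol exporter, was 0.447 times the nilotinib level, without overlap (adjusted p = 0.00217). Scd2, a fatty acid desaturase, was 0.395 times that level (adjusted p = 0.000199). It was the only called member of 25 lipogenic genes of the SREBP1c program (4.0%, near the 3.31% of all genes tested), whose median was 0.096. Beside Lpl, Abcg1 and Scd2 stand the summed macrophage markers given above, and their part in these differences was not tested. Lpl itself belongs to the recruited macrophage markers, so that sum includes Lpl and is no separate measure beside it. Apoa4, an apolipoprotein made by hepatocytes and gut, was 1.64-fold higher with imatinib (adjusted p = 0.0175). It was not called without imatinib mouse 1, at a log2 fold change of 0.55. Among 20 apolipoproteins and assembly genes it was the only called member (5.0%, near the 3.31% of all genes tested).

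Several collagen genes were lower with imatinib. Of 19 tested, 8 were called lower and 0 higher, 16 had a negative fold change, and the median was -0.97. Col1a1, a chain of the main fibrillar collagen of scars, ran from 7.01 to 19.1 CPM with imatinib (median 11.7) and from 20.7 to 196 CPM with nilotinib (median 53.4). Imatinib mice were close together and below every nilotinib mouse, while nilotinib mice were spread (log2 fold change -2.53 ± 0.48 SE, adjusted p = 0.000993). Col1a2 and Col3a1, its partner chain and the other main fibrillar collagen, followed without overlap, at log2 fold changes of -1.78 ± 0.33 and -2.26 ± 0.38 (SE; adjusted p = 0.00077 and 0.000291). Col4a1, of basement membranes, was 0.436 times the nilotinib level (adjusted p = 0.00287). Of 41 matrix and TGF-beta genes, 9 were called lower and 0 higher, Sparc among them (0.492 times, adjusted p = 0.00724). That count was 4 without the 3 mice above 12% of reads outside genes, and 5 without imatinib mouse 3, 4 or 8 or nilotinib mouse 4, 7 or 8.

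Of 24 stellate and mesenchymal markers, which include those of the collagen-making cells, Vim and Tagln were called lower (8.33%), 21 had a negative fold change, and the median log2 fold change was -0.52. At an unadjusted p below 0.05, 12 were lower and 0 higher, against 15.5% of all genes in either direction, and limma voom with quality weights called 7. By edgeR, 1 was called without imatinib mouse 1, 2 or 5 or nilotinib mouse 2, 4, 7 or 8. Vim, an intermediate filament of mesenchymal cells and leukocytes, ran from 25.6 to 38.2 CPM against 41.0 to 121 CPM, without overlap (adjusted p = 0.000347). Lrat, the enzyme that stores retinol in stellate cells, had 36.7 ± 6.83 CPM with imatinib and 49.9 ± 6.12 CPM with nilotinib, and Des, the muscle-type filament of the same cells, 8.86 ± 3.92 and 9.58 ± 2.45 CPM (SD, n = 8 mice each; edgeR adjusted p = 0.234 and 0.897). The 24 markers summed to 1131 to 1379 CPM with imatinib and 1358 to 1660 CPM with nilotinib, and the ranges touched. Of 28 endothelial markers, 0 were called by edgeR, 2 by DESeq2, 0 by limma voom and 2 with quality weights, 3 had an unadjusted p below 0.05, and the median was -0.12. Against the shared control mice, Col1a1 showed a log2 fold change of -3.03 with imatinib (adjusted p = 4.06e-05) and -0.49 with nilotinib (adjusted p = 0.637).

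**Figure D4:**
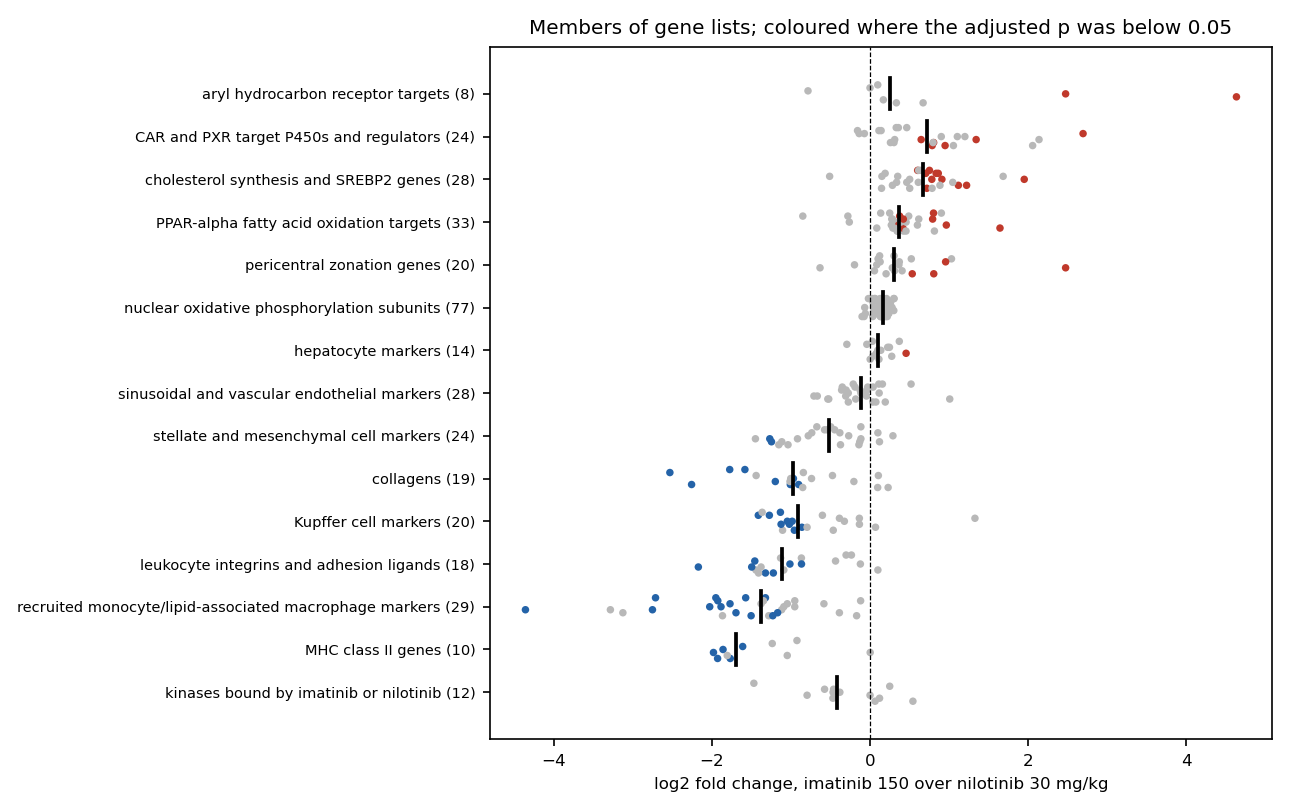
Each row is a gene list with its number of tested members, each point the log2 fold change of a member (imatinib 150 over nilotinib 30 mg/kg), red or blue where the adjusted p was below 0.05, and the bar the list's median; the dashed line is the median of all genes tested, 0.001. The SREBP2, CAR and PXR lists lie to the right with medians of 0.67 and 0.72, and the macrophage, MHC class II and collagen lists to the left with medians from -0.91 to -1.69.

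The mRNAs of the drugs' own protein targets were compared whatever their values. None of the 12 genes listed as bound by imatinib or nilotinib was called by edgeR, 1 was called by DESeq2, 0 by limma voom and 2 with quality weights, 4 had an unadjusted p below 0.05, and the median log2 fold change was -0.42. Abl1, the normal counterpart of the leukemia kinase, had 43.0 ± 8.94 CPM with imatinib and 41.1 ± 4.98 CPM with nilotinib (SD, n = 8 mice each), and the 95% confidence interval of the log2 fold change ran from -0.20 to 0.33. Nqo2, a quinone oxidoreductase, had 135 ± 23.5 and 135 ± 25.6 CPM (SD, n = 8 mice each), with an interval from -0.28 to 0.28. For Abl2, the close relative of Abl1, it ran from -0.94 to 0.00, and for Kit, the stem cell factor receptor, from -0.36 to 0.85. The intervals were -0.91 to 0.15 for Pdgfra and -1.09 to -0.06 for Pdgfrb, the PDGF receptors of mesenchymal cells, and -1.30 to 0.36 for Ddr1 and -1.09 to 0.17 for Ddr2. Csf1r, the macrophage growth factor receptor, ran from 46.0 to 86.0 CPM with imatinib and from 80.9 to 182 CPM with nilotinib, with 6 imatinib mice below every nilotinib mouse (log2 fold change -0.80 ± 0.25 SE, adjusted p = 0.058), and was called without imatinib mouse 6, nilotinib mouse 1 or nilotinib mouse 6. Differences of up to the ends of these intervals are not excluded, and mRNA says nothing of whether the kinases were inhibited.

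**Figure D5:**
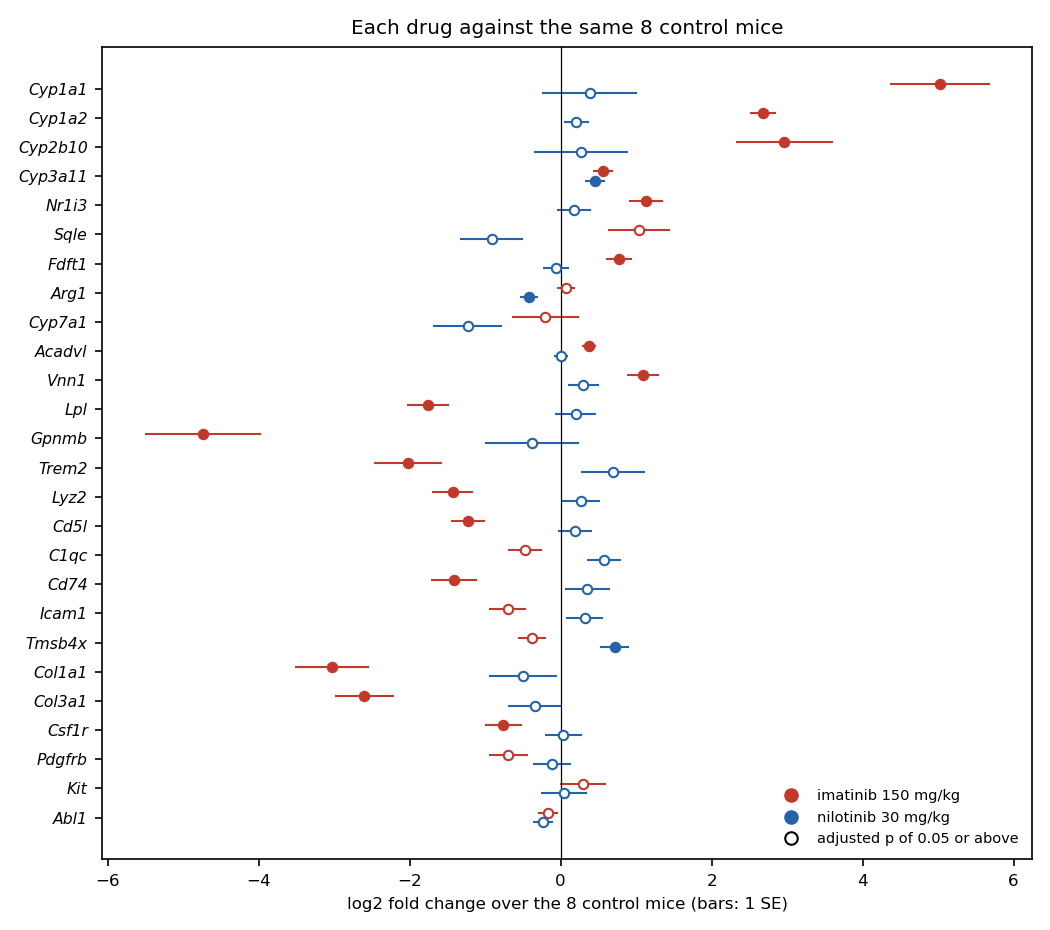
The horizontal axis gives the log2 fold change of each drug over the same 8 control mice, with bars of 1 SE, for 26 genes of the text; imatinib 150 mg/kg is red and nilotinib 30 mg/kg blue, filled where the adjusted p was below 0.05. Cyp1a1, Cyp1a2 and Cyp2b10 are filled for imatinib alone and to the right, Gpnmb and Col1a1 for imatinib alone and to the left, Arg1 for nilotinib alone and to the left, and Cyp3a11 for both and to the right.

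Seen from control, 1356 genes (9.62%) were called with imatinib and 770 (5.46%) with nilotinib 30 mg/kg, and these comparisons share the 8 control mice. The share of reads outside annotated genes ran from 7.55 to 8.68% in the control mice, below every nilotinib mouse. It ran from 8.16 to 14.1% with imatinib and from 9.41 to 12.7% with nilotinib. The part of this share in any comparison with control in the text was not tested. With nilotinib, Cyp1a2 stood at a log2 fold change of 0.21 (adjusted p = 0.563), Lpl with 0.20 (adjusted p = 0.786) and Lyz2 with 0.27 (adjusted p = 0.673). With imatinib the same genes had 2.68, -1.75 and -1.43 (adjusted p = 3.49e-17, 3.62e-05 and 0.000324). For Tmsb4x and Arg1, nilotinib passed the test against control and imatinib did not. Tmsb4x, thymosin beta 4, which binds actin monomers, ran from 126 to 220 CPM with imatinib and from 237 to 481 CPM with nilotinib, around a control mean of 221 CPM. No imatinib mouse reached the nilotinib range (adjusted p = 0.000347), and the change from control was -0.38 with imatinib (adjusted p = 0.211) and 0.72 with nilotinib (adjusted p = 0.0149). Arg1, the last enzyme of the urea cycle, ran from 988 to 1439 CPM against 672 to 993 CPM, 1.4-fold higher with imatinib (adjusted p = 0.0114), beside a control mean of 1152 CPM, from which the log2 fold change was 0.07 with imatinib (adjusted p = 0.79) and -0.41 with nilotinib (adjusted p = 0.0272). It was not called without the 3 mice above 12% of reads outside genes, at a log2 fold change of 0.46.

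Compared with the lower dose of nilotinib, 10 mg/kg, imatinib gave 424 called genes (3.01%), a comparison that shares the imatinib mice. Cyp1a2, Lpl and Col1a1 had log2 fold changes of 2.64, -2.02 and -2.38 there, against 2.47, -1.95 and -2.53 at 30 mg/kg. For Fdft1 and Hsd17b7 they were 0.84 and 0.92 there, past the test (adjusted p = 0.00297 and 0.00148), against 0.84 and 0.91 at 30 mg/kg.

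Further calls lay outside the pathways above. Slc39a5, a zinc importer, ran from 7.69 to 34.7 CPM with imatinib and from 1.75 to 6.03 CPM with nilotinib, without overlap (log2 fold change 2.39 ± 0.54 SE, adjusted p = 0.00481). Snhg11, a small nucleolar RNA host gene, ran from 7.81 to 21.9 CPM against 0 to 6.54 CPM (log2 fold change 2.25 ± 0.44 SE, adjusted p = 0.00133). Gm26917, a long noncoding RNA, ran from 267 to 893 CPM against 133 to 237 CPM, and both drugs had passed the test against control, imatinib at a log2 fold change of 2.17 (adjusted p = 3.35e-11) and nilotinib at 0.84 (adjusted p = 0.00633). Of 22 endoplasmic reticulum chaperones and XBP1 targets, 0 were called by edgeR, DESeq2 or limma voom, with or without quality weights, and 0 had an unadjusted p below 0.05. Of 41 coagulation genes, 0 were called by edgeR, 1 by DESeq2, 0 by limma voom and 5 with quality weights, and 10 had an unadjusted p below 0.05, against 15.5% of all genes tested. Of 19 circadian clock genes, 0 were called by edgeR, DESeq2 or limma voom, and 8 by limma voom with sample quality weights. At an unadjusted p below 0.05, 10 passed, 8 higher and 2 lower with imatinib. The median log2 fold change was 0.48, with 14 of the 19 positive. Their sum ran from 767 to 1662 CPM with imatinib (median 1574) and from 608 to 1430 CPM with nilotinib (median 686). The control mice ran from 664 to 1870 CPM (median 1253). The clock gene Bhlhe40 had a median of 113 CPM with imatinib and 72.4 CPM with nilotinib (adjusted p = 0.0702), against a control mean of 170 CPM.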

How the data were processed

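Poly(A) RNA of 56 livers was made into NEBNext Ultra libraries and sequenced on a NextSeq 500. Per the study's methods and the submitters' processing notes, reads were aligned to GRCm38 with TopHat2 2.0.14 and Bowtie2 2.1.0, and HTSeq 0.6.1p1 made the raw counts per Ensembl gene that the authors deposited. Reads with more than 1 alignment were not counted, and the strand setting is not given in the sources used here. Lines that name no gene were dropped, and the share of reads outside genes is their no-feature count over reads on genes, ambiguous reads and no-feature reads together. Each mouse is a replicate, labels of the same drug and dose forming a group. Mice are numbered in accession order, and the labels name no batch.

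Counts of 48 mice, all but the L-NAME group and so including 16 ponatinib mice, were fitted in 1 model with a term per group using edgeR 4.0.16 in R 4.3.3 (filterByExpr, TMM, quasi-likelihood test), and imatinib 150 was contrasted with nilotinib 30 mg/kg. The 48 mice share 1 estimate of the spread. P-values were adjusted by Benjamini-Hochberg over 14090 genes, and all adjusted p-values in the text are from this edgeR fit. Confidence intervals are 95%. DESeq2 1.42.0, limma 3.58.1, other normalizations, filters and sample sets, and leaving out each mouse were tried, and the code was tested on simulated data.

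The comparison, genes and lists were chosen with earlier results of these data known. Named genes were, in each direction, the 12 called genes with the smallest p and the 8 with the largest fold change (with a symbol and at least 1 CPM), up to 5 called members per list, up to 2 members of lists without a call, and fixed drug targets and liver genes. Of 141 such genes, 79 are left out of the report, a few of them as not reported here, and 13 others were named after their values were seen: Ahr, Tiparp, Cyp1b1, Cyp2c37, Stard4, Acat2, Nsdhl, Dhcr7, Tm7sf2, Clec4f, Timd4, Lrat and Des.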

Additional observations from a re-analysis of the deposited data

Results flagged for a closer look

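The highest and lowest mouse of each drug group were checked with Dixon's ratio for 75 genes of the text, 150 groups of 8 mice in all. A single mouse stood apart in 15 groups. The cut-off marks about 1 in 20 groups, that is 8, where values are normally distributed and independent. The values checked were CPM without log scaling, for genes measured in the same mice, so no conclusion is drawn from 15 against 8. No explanation was tested, and none of these mice was left out of the values above.

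Imatinib mouse 2 was the highest of its group for 5 genes: Trem2 at 11.7 CPM (next mouse 5.53), Mmp12 at 21.8 CPM (next 8.64), Itgb2 at 23.2 CPM (next 14.8), Col4a1 at 45.1 CPM (next 32.8) and Ddr2 at 14.8 CPM (next 8.33). Without this mouse 454 genes were called. Imatinib mouse 6 was highest for Lyz2 at 160 CPM (next 96.5) and Gm26917 at 893 CPM (next 469), and imatinib mouse 1 was lowest for Cyp2c37 at 675 CPM (next 820).

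Nilotinib mouse 8 was highest for Cyp1a1 at 5.09 CPM (next 1.58), Cyp1b1 at 9.42 CPM (next 4.44) and Ddr2 at 17.3 CPM (next 10.5). Nilotinib mouse 1 was highest for Fdft1 at 104 CPM (next 65.2) and lowest for Tiparp at 0.659 CPM (next 7.51). Nilotinib mouse 3 was lowest for Abcc3 at 174 CPM (next 271), and nilotinib mouse 7 highest for Col1a1 at 196 CPM (next 98.8).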

How the results depend on the processing

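The 466 calls (155 higher, 311 lower with imatinib) stayed within 1.5 times in number with 16 or 56 mice, other size factors, limma voom, other filters, or the share of reads outside genes as covariate (411 to 548). DESeq2 called 704, 472 of them lower, and limma voom with quality weights 1056, 485 higher and 571 lower. At an unadjusted p below 0.01 there were 1027 (415 higher, 612 lower), at an adjusted p below 0.01 178 (43 and 135), and against a log2 change of 0.5 (glmTreat) 58 (9 and 49), which are looser or stricter by construction. Without the 3 mice above 12% of reads outside genes, chosen after seeing the data, 319 were called, 98 higher. Leaving out single mice gave 274 to 562 calls, 86 to 210 higher and 188 to 363 lower. Where no construction explains a change, the cause was not tested. Among genes the sign changed for values near 0: Nqo2 to 0.0046 with 16 mice, 0.0074 with limma voom, 0.023 with the covariate, 0.065 without the 3 mice and -0.056 to 0.056 without single mice; Des to 0.050 without the 3 mice; Abl1 -0.019 to 0.11 and Tiparp -0.082 to 0.20 without single mice. Cela2a ranged from -2.75 to 0.43, positive without nilotinib mouse 8. No paired analysis was possible because replicate numbers were given in accession order and pair no mice. Genes near 1 CPM rest on few reads in each mouse.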

Other observations

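Some other gene groups held a larger share of calls than the 3.31% of all genes tested, partly through genes already given above. Of 30 complement genes, 5 (16.7%) were lower with imatinib, C1qa, C1qb, C1qc, C3ar1 and Cfp, which macrophages and other myeloid cells express. The median log2 fold change over the list was -0.12. C1qa, C1qb and C1qc are also among the Kupffer cell markers. The number of complement genes called lower ran from 3 to 5 as single mice were left out. Of 20 pericentral genes, 4 (20.0%) were higher, Cyp1a2, Aldh3a2, Tbx3 and Rnf43, with a median of 0.31. Rnf43 was not called without the 3 mice above 12% of reads outside genes. Of 20 periportal genes, 1 (5.0%) was higher, Arg1, which is near the share over all genes, and the median was 0.18. Of 32 lysosomal genes, 5 were lower and 1 higher (18.8% together), with a median of -0.12.

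The B and plasma cell markers summed to 118 to 176 CPM with imatinib and 243 to 704 CPM with nilotinib, without overlap. This list includes Cd74, which alone ran from 66.4 to 126 CPM and from 151 to 650 CPM, a large part of the sums. Of the 14 markers, 2 (14.3%) were called lower, Cd74 and Cd22. Fold changes were negative for 9 and positive for 5, with a median log2 fold change of -0.23. The cholangiocyte markers summed to 146 to 301 CPM and 169 to 358 CPM.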
